A study of Homo sapiens with 6 samples.

Results

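The PIM kinases and the cytokine feedback genes of the SOCS family were examined in L428, an established cell line of human Hodgkin lymphoma. The members were the 7 genes PIM1, PIM2, PIM3, SOCS1, SOCS2, SOCS3 and CISH. They were taken as all probe sets that the PrimeView array annotation assigns to one of these genes alone, which gave 13 of the 49393 probe sets on the array that are not controls. PIM1 had 4 probe sets, SOCS1, SOCS2 and SOCS3 had 2 each, and PIM2, PIM3 and CISH had 1 each. The cells were nucleofected with 3 µg of an siRNA against BATF3 (3 arrays) or of a negative control siRNA (3 arrays) and cultured for 48 hours, and total RNA was hybridised to the arrays. Both groups therefore share the line and the nucleofection, only 1 BATF3 siRNA was used, and the labels do not say whether the replicates were separate cultures. The p-values thus cover the spread between these arrays, which may be technical.

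Cytokine receptors signal through JAK kinases, which phosphorylate STAT transcription factors, and active STATs switch on PIM, SOCS and CISH genes directly. PIM1, PIM2 and PIM3 are serine/threonine kinases that favour survival and growth and need no activating phosphorylation, so their activity follows their abundance closely. SOCS1, SOCS2, SOCS3 and CISH close the loop: they bind phosphorylated receptors or JAKs through an SH2 domain and bring in a ubiquitin ligase through their SOCS box. Hodgkin lymphoma cells are known for persistent JAK-STAT signalling, and SOCS1 is a recurrent target of mutation in this disease.

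BATF3, the basic leucine zipper factor targeted by the siRNA, read 10.87, 10.76 and 10.69 after BATF3 siRNA and 11.89, 12.08 and 11.94 after control siRNA (log2, replicates 1, 2 and 3). It fell by 1.20 (log2; SE 0.095) with a limma adjusted p of 0.00673. Leaving out replicate 3 of the BATF3 siRNA or replicate 2 of the control siRNA left 0 genes past the threshold in limma, with 851 and 1440 genes at an unadjusted p under 0.05. All 8 Hodgkin line markers examined, among them TNFRSF8 (CD30), CCL17 and FSCN1, lay above the highest background probe set of every array. Of 6 measured B cell genes only CD79B did so, and 0 of 17 markers of T and NK cells, myeloid cells, fibroblasts and epithelium did on any array. The mean background of the array's background probe sets holding 20 to 25 G and C bases was 5.92 and 5.98 in BATF3 siRNA replicates 2 and 3 and 6.46 to 6.49 in the other 4 arrays. With this background as a block in the fit limma called 0 genes, BATF3 included (1011 at an unadjusted p under 0.05). The background of BATF3 siRNA replicate 1 was at the controls' level, so that fit compares this array alone with the controls. Losing calls there cannot decide whether BATF3 fell: it read 10.87 on that array against a control mean of 11.97. The values of BATF3 siRNA replicate 1 are given below beside those of replicates 2 and 3. In bulk RNA a change in the share of cells that express a gene and a change in its RNA per cell cannot be told apart.

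By the probe set of highest mean, the 3 PIM genes each read higher on all 3 BATF3 siRNA arrays than on any control array, with mean differences of 0.22 to 0.42 on the log2 scale. For PIM1 this held for 2 of its 4 probe sets. SOCS1, SOCS3 and CISH differed by 0.034 to 0.12. SOCS2 read lower by 0.60 but under the highest background probe set of every array. None of the 7 genes passed the threshold of a limma adjusted p under 0.05, which 3 of 18244 genes passed (0.0164%). The 3 members whose groups did not overlap, all higher, stand beside 1161 of 18244 genes (6.36%) that were higher without overlap. At an unadjusted p under 0.05, 3 members were higher and 1 was lower, where 3.73% and 3.42% of all genes were. The median change was +0.12 over the 7 members and −0.0027 over all genes. The members were listed with earlier results known, PIM2 among them, so these shares are a description.

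**Figure D1:**
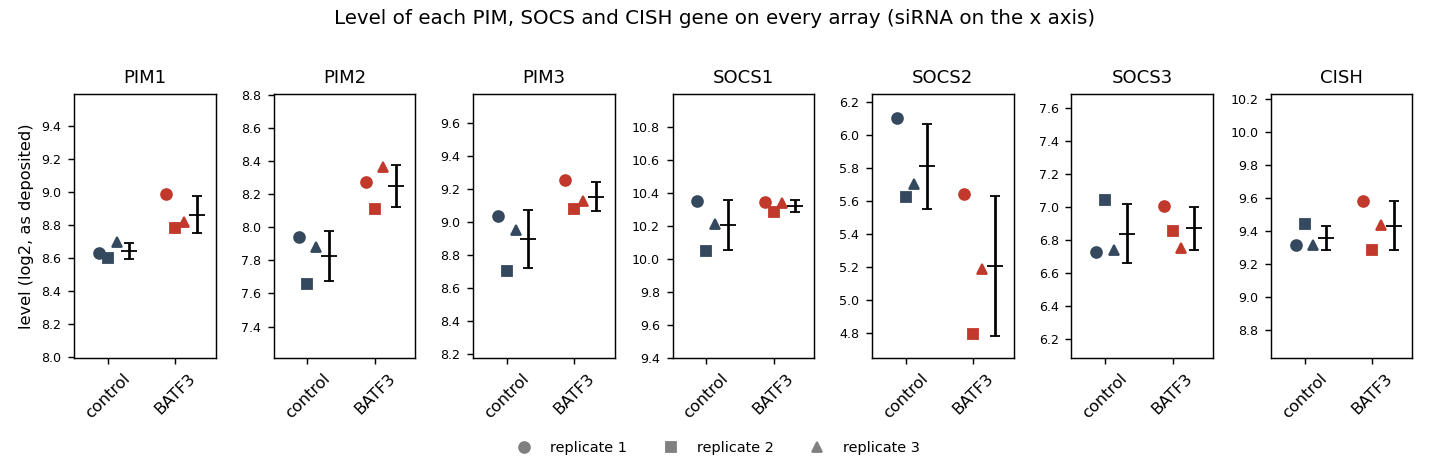
Level of each of the 7 genes (log2, as deposited; probe set with the highest mean) on the 3 control siRNA arrays and the 3 BATF3 siRNA arrays, with symbols for the replicate number and a bar for the mean ± SD to the right of each group; every panel spans the same log2 range. The groups do not overlap for PIM1, PIM2 and PIM3 and overlap for SOCS1, SOCS2, SOCS3 and CISH.

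The promoters of CISH, SOCS1 and PIM2 are shown because they hold the STAT-type and IRF-type motifs found among the members, or, for PIM2, because that gene differed most clearly between the siRNAs. Each is the 250 bases before the gene's start in RefSeq, build GRCh38.p14, 5′ to 3′ on the gene's strand, with motif matches in capitals. CISH lies on the minus strand at chr3:50611775-50612024, SOCS1 on the minus strand at chr16:11256205-11256454 and PIM2 on the minus strand at chrX:48919025-48919274.
CISH: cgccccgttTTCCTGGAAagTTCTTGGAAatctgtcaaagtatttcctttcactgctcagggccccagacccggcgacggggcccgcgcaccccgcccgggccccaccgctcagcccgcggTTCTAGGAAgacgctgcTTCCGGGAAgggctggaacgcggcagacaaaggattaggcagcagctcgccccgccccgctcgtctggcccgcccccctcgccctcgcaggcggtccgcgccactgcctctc
SOCS1: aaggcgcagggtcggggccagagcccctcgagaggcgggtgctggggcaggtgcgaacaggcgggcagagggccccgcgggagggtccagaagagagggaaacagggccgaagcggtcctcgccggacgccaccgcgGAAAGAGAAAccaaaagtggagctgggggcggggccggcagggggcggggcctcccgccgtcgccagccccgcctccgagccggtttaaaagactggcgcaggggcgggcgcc
PIM2: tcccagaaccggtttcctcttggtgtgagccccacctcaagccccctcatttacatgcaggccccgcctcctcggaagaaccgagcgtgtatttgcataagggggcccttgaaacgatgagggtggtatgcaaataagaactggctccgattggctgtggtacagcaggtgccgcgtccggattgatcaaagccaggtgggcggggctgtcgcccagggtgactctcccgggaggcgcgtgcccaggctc

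Both strands were searched for 4 motifs in these windows. They were the STAT motif TTCNNNGAA, the STAT6 form TTCNNNNGAA with a longer spacer, the AP-1 motif TGANTCA and the IRF motif GAAANNGAAA. The search covered 7 windows of 6 members (2 for SOCS3), and SOCS2 was not analysed here. CISH had 4 STAT matches, at 241, 230, 129 and 112 bases before the start, and 5 of 35116 windows had at least 4 such matches. The single IRF match was in SOCS1, 113 bases before its start. No STAT6 or AP-1 match was found, and the windows of PIM1, PIM2, PIM3 and SOCS3 held none of the 4 motifs. Over all windows the STAT motif was present in 6.57%, the STAT6 form in 5.38%, AP-1 in 6.57% and IRF in 3.02%. A match is only a run of letters, and the windows leave out more distant elements.

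PIM2, a kinase known for sustaining survival and protein synthesis in B-lineage cells, had the smallest p among the members. It read 8.28, 8.11 and 8.36 after BATF3 siRNA and 7.94, 7.65 and 7.88 after control siRNA (log2, replicates 1, 2 and 3). The lowest BATF3 siRNA array stood 0.17 above the highest control array, and in each group replicate 2 was the lowest. The means were 8.25 ± 0.13 and 7.83 ± 0.15 (SD, n = 3 each). PIM2 was thus +0.42 (SE 0.11), or 1.34-fold, (95% confidence interval 1.13 to 1.59; limma adjusted p = 0.459), with a two-sided exact permutation p of 0.1, the smallest that 3 arrays against 3 allow. BATF3 siRNA replicate 1 alone lay 0.45 above the control mean and replicates 2 and 3 lay 0.41 above it. Over the 6 arrays the Pearson correlation of PIM2 with the G and C rich background was −0.544, and 2 arrays stand apart in that background. PIM2 lay above the highest background probe set on all 6 arrays.

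PIM3, a kinase close in sequence to PIM1, read 9.25, 9.08 and 9.13 after BATF3 siRNA and 9.04, 8.70 and 8.95 after control siRNA. The groups were apart by 0.044, and the low control value was again that of replicate 2. The change was +0.26 (SE 0.11) or 1.19-fold (95% confidence interval 1.01 to 1.42; limma adjusted p = 0.689). Without control siRNA replicate 2 it was 0.16, and it was 0.35 for BATF3 siRNA replicate 1 alone.

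PIM1, the founding member and a classical STAT3 and STAT5 target, was read by 4 probe sets, 2 with groups apart and 2 with overlapping groups. Probe set 11717257_s_at, which had the highest mean, read 8.99, 8.78 and 8.82 after BATF3 siRNA and 8.63, 8.60 and 8.70 after control siRNA, a change of +0.22 (SE 0.092; 1.16-fold, 95% confidence interval 1.01 to 1.35; limma adjusted p = 0.689). Probe set 11717256_at read 7.76, 7.41 and 7.67 against 7.40, 7.06 and 7.37, a change of +0.34 with the groups apart by only 0.0043. It exceeded the highest background probe set on 5 of 6 arrays, and control siRNA replicate 2 lay under it by 0.054. For 11717258_a_at and 11746350_a_at the groups overlapped, and the changes were 0.069 and +0.10. In BATF3 siRNA replicate 1 all 4 probe sets stood above the control mean, by 0.35 to 0.48. In replicates 2 and 3 together the first pair stood above it by 0.16 and 0.26, and the second pair stood at −0.078 and −0.024.

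The PIM genes were also compared with each other within arrays. The change of PIM2 exceeded that of PIM3 by 0.17 (SE 0.071; two-sided exact permutation p = 0.1) and that of PIM1 by 0.20 (SE 0.11; exact permutation p = 0.2). The smallest p the design allows is 0.1, so these tests could not pass a threshold of 0.05, and PIM2 was picked with its values known. Without BATF3 siRNA replicate 3 the differences were 0.098 from PIM3 and 0.13 from PIM1, and with the most variable PIM1 probe set the latter was 0.089. PIM3 and PIM1 differed in change by 0.036 (SE 0.091; exact permutation p = 0.7).

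**Figure D2:**
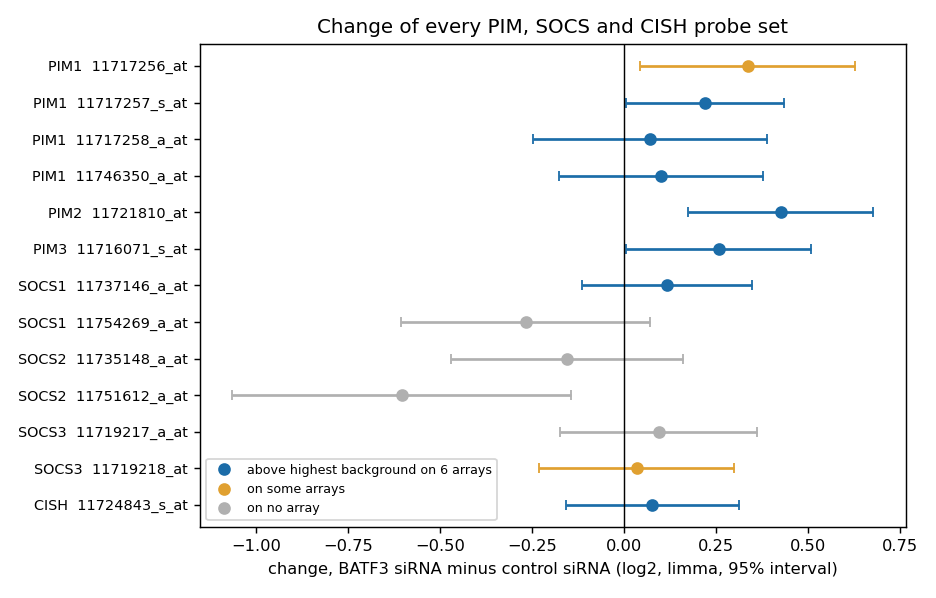
Change of each of the 13 probe sets (BATF3 siRNA minus control siRNA, log2; points with 95% confidence intervals from limma over all probe sets), coloured by how many of the 6 arrays read above the highest background probe set. The 4 intervals that lie wholly above 0 belong to PIM1 (2 probe sets), PIM2 and PIM3, and the interval wholly below 0 to SOCS2 probe set 11751612_a_at, which was under background on every array.

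In a fit over the 49393 probe sets rather than genes, 5 passed (0.0101%), and 0 of the 13 member probe sets did. At an unadjusted p under 0.05 there were 5 of the 13, 4 higher and 1 lower, and 3538 of all probe sets (7.16%). Of the 13, 10 had a positive change, and 48.9% of all probe sets did. Probe sets of the same gene are not independent readings, and 4 of the 13 are of PIM1.

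CISH, an inhibitor that STAT5 induces and that binds receptor chains, is the gene with the 4 STAT matches printed above. It read 9.58, 9.28 and 9.44 after BATF3 siRNA and 9.32, 9.44 and 9.31 after control siRNA. The groups overlapped, with BATF3 siRNA replicates 1 and 2 as the highest and the lowest array. The change was 0.077 (SE 0.10; limma adjusted p = 0.920), with a 95% confidence interval of 0.90-fold to 1.24-fold. Without BATF3 siRNA replicate 1 the change was 0.0033, and with the background block, which rests on that array, it was 0.22. CISH was above background on every array.

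SOCS1, which blocks JAK kinase activity directly, was read by a bright and a dim probe set. The bright one, 11737146_a_at, read 10.35, 10.28 and 10.34 after BATF3 siRNA and 10.35, 10.05 and 10.21 after control siRNA, with means of 10.32 ± 0.034 and 10.20 ± 0.15 (SD, n = 3 each). This is a difference of 0.12 (SE 0.10; limma adjusted p = 0.862; 95% confidence interval 0.93-fold to 1.27-fold), and the groups overlapped through control siRNA replicate 1. Without that array the difference was 0.19, and it was 0.037 when control siRNA replicate 2 was left out. The dim one, 11754269_a_at, lay under background on every array and read 6.74, 6.19 and 6.41 against 6.80, 6.84 and 6.50, a change of −0.27 (SE 0.15). Its value for BATF3 siRNA replicate 1 stood 0.023 above the control mean, and the replicates with the lower background stood at −0.41. The 2 probe sets thus had changes of opposite sign, neither of which passed the threshold.

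SOCS2, an inhibitor best known from growth hormone signalling, read under the highest background probe set on all 6 arrays with both probe sets. Probe set 11751612_a_at read 5.64, 4.80 and 5.19 after BATF3 siRNA and 6.11, 5.63 and 5.70 after control siRNA. The groups overlapped, since BATF3 siRNA replicate 1 lay above control siRNA replicate 2. The change was −0.60 (SE 0.20; 0.658-fold, 95% confidence interval 0.479 to 0.905; limma adjusted p = 0.590). Against the control mean it was −0.17 in BATF3 siRNA replicate 1 and −0.82 in replicates 2 and 3. Only BATF3 siRNA replicates 2 and 3 had the lower background, so there background and siRNA cannot be told apart. Between arrays of the same replicate number the differences were −0.47, −0.83 and −0.52. Over the 6 arrays the Pearson correlation of this probe set with the G and C rich background was 0.905, where 2 arrays stand apart. The other probe set, 11735148_a_at, was at −0.16 (SE 0.14), and BATF3 siRNA replicate 1 was its lowest array at 4.16.

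SOCS3, induced by STAT3 and a brake on receptors of the IL-6 type, was also near or under background. Probe set 11719218_at read 7.01, 6.85 and 6.75 after BATF3 siRNA and 6.73, 7.04 and 6.74 after control siRNA, and exceeded the highest background probe set only in BATF3 siRNA replicates 2 and 3. Its change was 0.034 (SE 0.12; limma adjusted p = 0.971), and it was negative without BATF3 siRNA replicate 1 (−0.035). Probe set 11719217_a_at, under background on every array, was at 0.094 (SE 0.12).

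**Figure D3:**
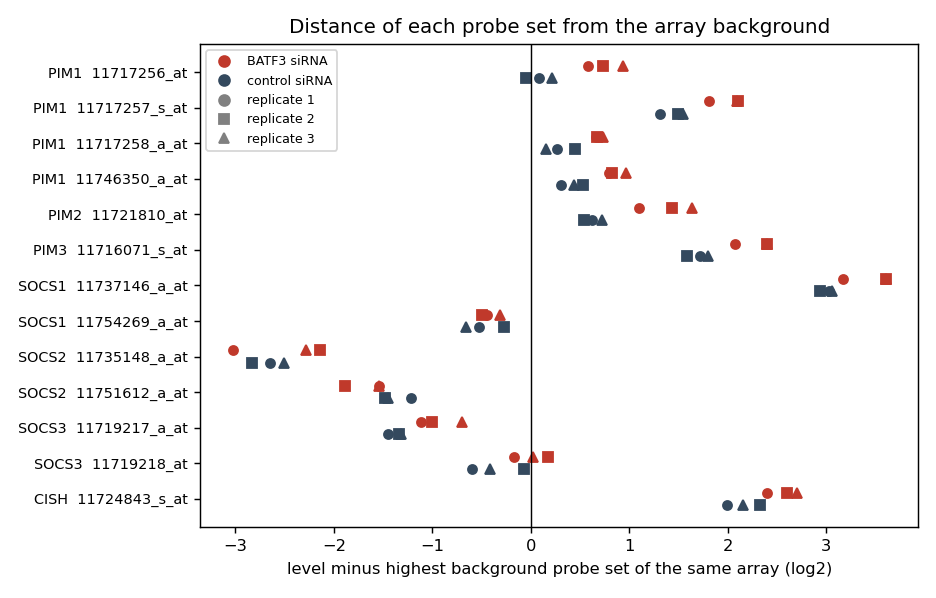
Level of each of the 13 probe sets minus that array's highest background probe set (log2), by siRNA (colour) and replicate (symbol). PIM2, PIM3, CISH, the brighter SOCS1 probe set and 3 PIM1 probe sets lie to the right of 0 on all 6 arrays, and 4 probe sets of SOCS1, SOCS2 and SOCS3 lie to the left on all 6; the background itself was lower in BATF3 siRNA replicates 2 and 3, which shifts their points to the right.

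**Figure D4:**
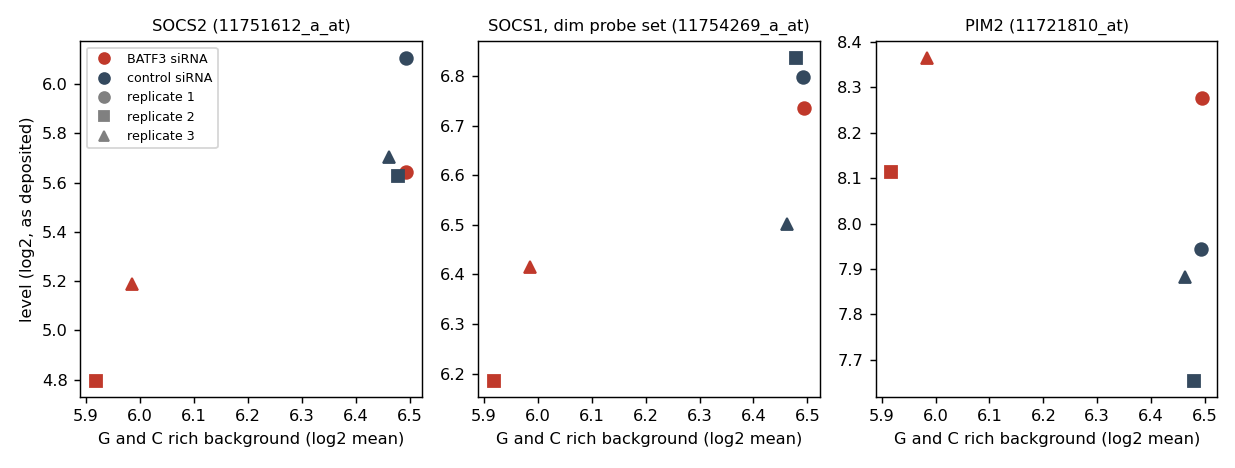
Level (log2, as deposited) of SOCS2 probe set 11751612_a_at, SOCS1 probe set 11754269_a_at and PIM2 on each array against the mean of the G and C rich background probe sets of that array. The SOCS2 and SOCS1 probe sets are lowest on the 2 arrays with the lower background, BATF3 siRNA replicates 2 and 3, and the PIM2 values of the 3 BATF3 siRNA arrays lie above those of the 3 control arrays.

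Among themselves, PIM2, PIM3 and SOCS1 varied together within the groups as well. Over the 6 arrays, after the group means were taken off, their deviations correlated at 0.81 for PIM2 and PIM3, 0.93 for PIM3 and SOCS1 and 0.85 for PIM2 and SOCS1 (Pearson). Replicate 2 was the lowest array of its group for each of these genes, with deviations of −0.17 for PIM2, −0.20 for PIM3 and −0.16 for SOCS1 in the control group. SOCS3 and CISH went the other way there, with control siRNA replicate 2 as the highest control array at 0.21 and 0.084 above the group mean. SOCS2, under background, also correlated within the groups with PIM3 (0.75), PIM1 (0.72), PIM2 (0.64), SOCS1 (0.63) and CISH (0.63), and at 0.043 with SOCS3. The pairs named here were picked with their values known, and no share over all genes was computed. Values from one array share its RNA, labelling and scaling.

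The level of PIM2 was set beside the 7917 other genes whose mean exceeded the highest background probe set of any array, and 63 had a Pearson correlation with it over 0.95 over the 6 arrays. The 5 highest were ZBTB21 (0.996), GSE1 (0.995), METTL6 (0.991), EGR1 (0.991) and DENND2C (0.990). Their changes were +0.27, +0.31, 0.050, +2.05 and +0.30, and none passed the threshold (limma adjusted p = 0.221 to 0.937). EGR1 encodes an immediate early zinc finger factor. PIM2 was taken as the member with the smallest p, so genes with a like difference between the siRNAs correlate with it. How many such correlations 6 arrays would give by chance was not computed.

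The genes around the members were described by lists, and 0 genes passed the threshold in any of them. Among 9 measured JAK kinases and STAT factors the median change was −0.037, 1 was higher and 1 lower at an unadjusted p under 0.05. STAT5B, which drives CISH and SOCS2 in many cells, averaged 9.57 ± 0.094 after BATF3 siRNA and 9.96 ± 0.13 after control siRNA (SD, n = 3 each). Its change was −0.38 (SE 0.10) with a limma adjusted p of 0.475 and no overlap, and 1054 of 18244 genes were lower without overlap. STAT5A averaged 12.22 after BATF3 siRNA and 12.25 after control siRNA, a change of −0.037 (SE 0.086) with overlapping groups. STAT4 was at +0.23 and JAK1 at −0.11.

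Of 15 measured other inhibitors of JAK-STAT signalling 6 had positive changes, with a median of −0.015. PTPRC, the CD45 phosphatase that can dephosphorylate JAKs, averaged 7.46 ± 0.22 after BATF3 siRNA and 6.53 ± 0.20 after control siRNA (SD, n = 3 each), or +0.92 (SE 0.14) with a limma adjusted p of 0.184, and exceeded the highest background probe set on 3 of 6 arrays. The SUMO ligase PIAS1 was at −0.17 and SOCS7 at +0.14. SH2B3 was not analysed here. The 6 partners of the SOCS ubiquitin ligase had a median of −0.011, with the scaffold CUL5 at −0.19, its RING partner RNF7 at +0.12 and elongin C (ELOC) at +0.10. Among 23 cytokine receptor chains 8 had positive changes (median −0.025). IL7R was at +0.47 under background on every array, IFNGR1 at +0.23 and IL5RA at −0.16.

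Other STAT target genes had a median of +0.11, with 12 of 17 positive, where 49.0% of all genes were. Without overlap of the groups, 2 were higher and 2 were lower. At an unadjusted p under 0.05, 3 were higher and 0 lower, where 3.73% and 3.42% of all genes were. Those 3 were JUNB, an AP-1 subunit, at +0.31 (SE 0.12), the germinal centre repressor BCL6 at +0.35 (SE 0.14) and the guanylate binding protein gene GBP1 at +0.47 (SE 0.20). Their limma adjusted p were 0.648, 0.663 and 0.689. GBP1 lay under background on every array. Of 14 genes whose proteins PIM kinases phosphorylate, 12 had positive changes (median +0.097), where 49.0% of all genes did. CDKN1A, the cell cycle inhibitor p21, averaged 8.03 ± 0.30 after BATF3 siRNA and 7.24 ± 0.054 after control siRNA (SD, n = 3 each), or +0.79 (SE 0.14) with a limma adjusted p of 0.226. CDKN1B (p27) was at +0.18 and the heterochromatin protein CBX3 at +0.12.

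**Figure D5:**
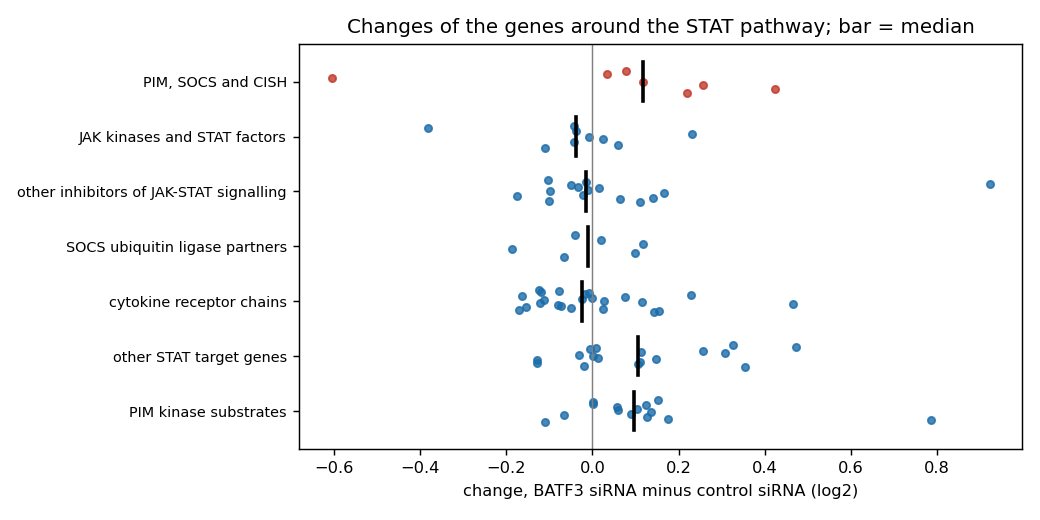
Change of each gene (BATF3 siRNA minus control siRNA, log2; 1 point per gene, black bar for the median) for the 7 members and 6 lists of genes around them. The 3 rightmost of the 7 member points are the PIM genes at +0.22 to +0.42 and the leftmost is SOCS2 at −0.60; PTPRC at +0.92 and CDKN1A at +0.79 are the far right points of their lists.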

How the data were processed

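The deposited table held 1 log2 value per probe set and array, made by the authors with the affy package for R, per the submitters' processing notes. The sources used here do not give its version or the steps of background correction, normalization and summarization, and base 2 was read from the spread of the values. Values were used as deposited, on a common scale that would hide a shift of most genes 1 way. Array medians were 6.24 to 6.32. Of 49495 probe sets 102 were controls, and 45278 had 1 gene in the platform annotation. Each of 18244 genes was represented by its probe set of highest mean level. BATF3 siRNA minus control siRNA was fitted without covariates over all genes and over all probe sets, using lmFit and eBayes of limma 3.58.1 (R 4.3.3; two-sided), and adjusted by Benjamini-Hochberg over each. The fit was also run on simulated data with independent noise for each gene and array. The simulation held no background difference between arrays, so it cannot speak to that limit. The number of arrays limits precision (median SE 0.107).

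Background means the deposited AFFX background probe sets, and a reading called under background lay under the highest of them. That highest one (25 G and C bases) lay between 6.68 and 7.32. The mean of those with 3 to 15 G and C bases was far lower, at 2.06 to 2.20. The bases of the members' own probes were not examined, so a reading under that level leaves the size of a change uncertain. Members and lists were chosen with earlier results of these data known. Named genes were all members, BATF3, from each list the called genes or else the 3 with the smallest p, and the 5 genes most correlated with the member of smallest p. STAT5A was added beside STAT5B. Alternatives covered scaling, dim features, choice of probe set, array weights, prior, threshold, blocks for replicate number and background, and leaving out each array.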

Additional observations from a re-analysis of the deposited data

How the results depend on the processing

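The count of member genes called stayed at 0 in all 17 alternatives, as did that of member probe sets in the 15 run on probe sets. At gene level PIM1, PIM2, PIM3, SOCS2 and CISH kept the sign of their change wherever they were tested, with PIM2 between 0.34 and 0.49 (adjusted p = 0.102 to 0.950). SOCS2 and SOCS3 had no value once dim features were left out. SOCS1 turned negative for the mean of its probe sets (−0.076) and for its most variable probe set (−0.27). SOCS3 ran from −0.035 to 0.14 as each array was left out, and was negative without BATF3 siRNA replicate 1 (−0.035) and without either of the control siRNA replicates 1 (−0.021) and 3 (−0.015). With the background block SOCS2 was at −0.17 and CISH at 0.22. That block leaves BATF3 siRNA replicate 1 alone against the controls, so these repeat the values of that array. The causes were not tested.

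Among PIM1 probe sets, 11717258_a_at turned negative without BATF3 siRNA replicate 1 (−0.078) and without control siRNA replicate 3 (−0.019), and 11746350_a_at without the former (−0.024).

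Over all genes, limma called 7 genes with dim features left out, 5 for the most variable probe set, 25 with array weights, 12 with an intensity trend and robust prior, 0 with the background block (1011 at an unadjusted p under 0.05), 6 at an adjusted p under 0.1, and 0 to 2 when 1 array was left out. In the list of other inhibitors of JAK-STAT signalling 1 gene, PTPRC, was called for the mean of probe sets, the most variable probe set, array weights and the intensity trend. The labels do not say whether the replicate numbers pair the samples. Same-numbered deviations correlated at 0.029, 0.15 and −0.025, and differently numbered ones at −0.10 to 0.097. With the replicate number as a block 3 genes were called over all genes, 0 of them members. The unadjusted limma p of SOCS2 was 0.000497 with that block and 0.0155 without it (limma adjusted p = 0.302 and 0.590).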
